A study of Mus musculus with 5 samples.

Results

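The hypothalamic identity genes described here are 9 genes: the transcription factor genes Otp, Sim1, Fezf1, Nkx2-4, Foxb1, Hmx2 and Hmx3, the neuropeptide precursor gene Pomc and the signalling adaptor gene Irs4. They were taken by gene symbol from the table of counts, as 9 of 27919 rows that carry a gene name. The hypothalamus forms from the ventral part of the anterior neural tube under sonic hedgehog signalling, and its nuclei are specified by combinations of homeodomain, bHLH-PAS, forkhead and zinc finger factors. Otp and Sim1 act in neuroendocrine neurons of the paraventricular and supraoptic nuclei in mice, Hmx2 and Hmx3 in the arcuate nucleus, and Foxb1 in the mammillary body. Polyadenylated RNA was sequenced from the E12.5 embryonic forebrain of 3 EedcKO and 2 wild-type samples, all from untreated mice of the C57BL/6 strain that the submitters call littermates. Eed is a core subunit of Polycomb repressive complex 2, which methylates histone H3 at lysine 27 and keeps many developmental genes silent. The sources used here do not give the deleted part of Eed or what drives its deletion. It is not stated whether the samples were separate embryos, and the spread between them that the p-values measure may be partly technical.

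The counts of each library summed to between 4820630 and 5026381. Eed itself had 251, 233 and 247 counts in EedcKO 1, 2 and 3, against 404 in wild type 1 and 238 in the second wild-type sample, which is called the library labelled wild type 2 here because its Eed count lay within the range of the EedcKO libraries. The 39 HOX genes, which the forebrain normally keeps silent, summed to 85, 184 and 62 counts in EedcKO 1, 2 and 3, against 2 in wild type 1 and 134 counts in the library labelled wild type 2. That library also held the most RNA of 5 epithelial markers, at 147 CPM (counts scaled to library size with TMM factors), against 11.05 to 19.0 CPM in the EedcKO libraries and 17.9 CPM in wild type 1. Markers of the telencephalon summed to between 1445 and 1575 CPM in EedcKO, against 1303 CPM in wild type 1 and 1309 CPM in the library labelled wild type 2, and none of the 10 was at 0 in any library. That sum joins genes that moved in opposite directions: 3 dorsal markers passed as higher in EedcKO and 1 ventral marker, Dlx5, as lower. The wild-type side of each direction given below includes the library labelled wild type 2.

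Summed over the 9 genes, the hypothalamic RNA was lower in every EedcKO library than in both wild-type libraries, and Otp and Fezf1 made up most of that sum in wild type. The sums were 28.5, 23.7 and 20.5 CPM in EedcKO 1, 2 and 3, against 243 CPM in wild type 1 and 135 CPM in the library labelled wild type 2. Otp, Fezf1 and Irs4 passed the test as lower (edgeR's quasi-likelihood test with Benjamini-Hochberg adjustment over all tested genes, threshold 0.05), and no member passed as higher. Of all 13989 genes tested, 3.2% passed, 2.17% as lower and 1.04% as higher. A log2 fold change of -2 or below was fitted for 4 members, Otp, Sim1, Fezf1 and Irs4, and for 0.793% of all genes tested. The members were chosen with earlier results of these data known, so these shares are a description and no support. Only 5 of the 9 members had enough counts to be tested, namely Otp, Sim1, Fezf1, Pomc and Irs4, and Otp reached the filter through its wild-type libraries alone. In 5 members, Otp, Sim1, Fezf1, Foxb1 and Irs4, every EedcKO library lay below both wild-type libraries, as it did in 17.4% of all genes tested, and in Nkx2-4, Pomc, Hmx2 and Hmx3 the groups overlapped. That share leaves out genes too low to test, as Foxb1 was. In bulk tissue fewer hypothalamic cells and less RNA per cell cannot be told apart.

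Some markers of other cell types moved with genotype beside the hypothalamic genes, and others did not. The dorsal telencephalic markers Neurod6, Eomes and Tbr1, made in cortical neurons and their progenitors, had log2 fold changes of 1.22, 1.16 and 0.58 (edgeR adjusted p = 0.00598, 0.0137 and 0.0496). Dlx5, a homeodomain factor of ventral telencephalic interneurons, was at -0.92 (edgeR adjusted p = 0.0248), and Lhx6, which did not pass, was at -2.09 (edgeR adjusted p = 0.0695). In the thalamic list 1 of 7 tested genes passed, Barhl2 at -0.79 (edgeR adjusted p = 0.0361). Gbx2, which did not pass, was at -2.64 (edgeR adjusted p = 0.104), and Lef1 went the other way, at 0.33 (edgeR adjusted p = 0.684). The sum of that list overlapped between the groups, at 117 to 169 CPM in EedcKO, against 146 CPM in wild type 1 and 226 CPM in the library labelled wild type 2. Sox10, a factor of neural crest and of glia, was at -3.49 (edgeR adjusted p = 0.0210). It had 5, 1 and 3 counts in EedcKO 1, 2 and 3, against 42 in wild type 1 and 28 counts in the library labelled wild type 2. It could therefore enter the test only where wild type was high. The 8 genes of its list summed to between 22.3 and 24.6 CPM in EedcKO, against 53.8 CPM in wild type 1 and 43.8 CPM in the library labelled wild type 2. Of the 6 general neuronal markers Syt1 passed, at -0.74 (edgeR adjusted p = 0.0390). The part of these cell types in the values of the hypothalamic genes was not tested.

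**Figure D1:**
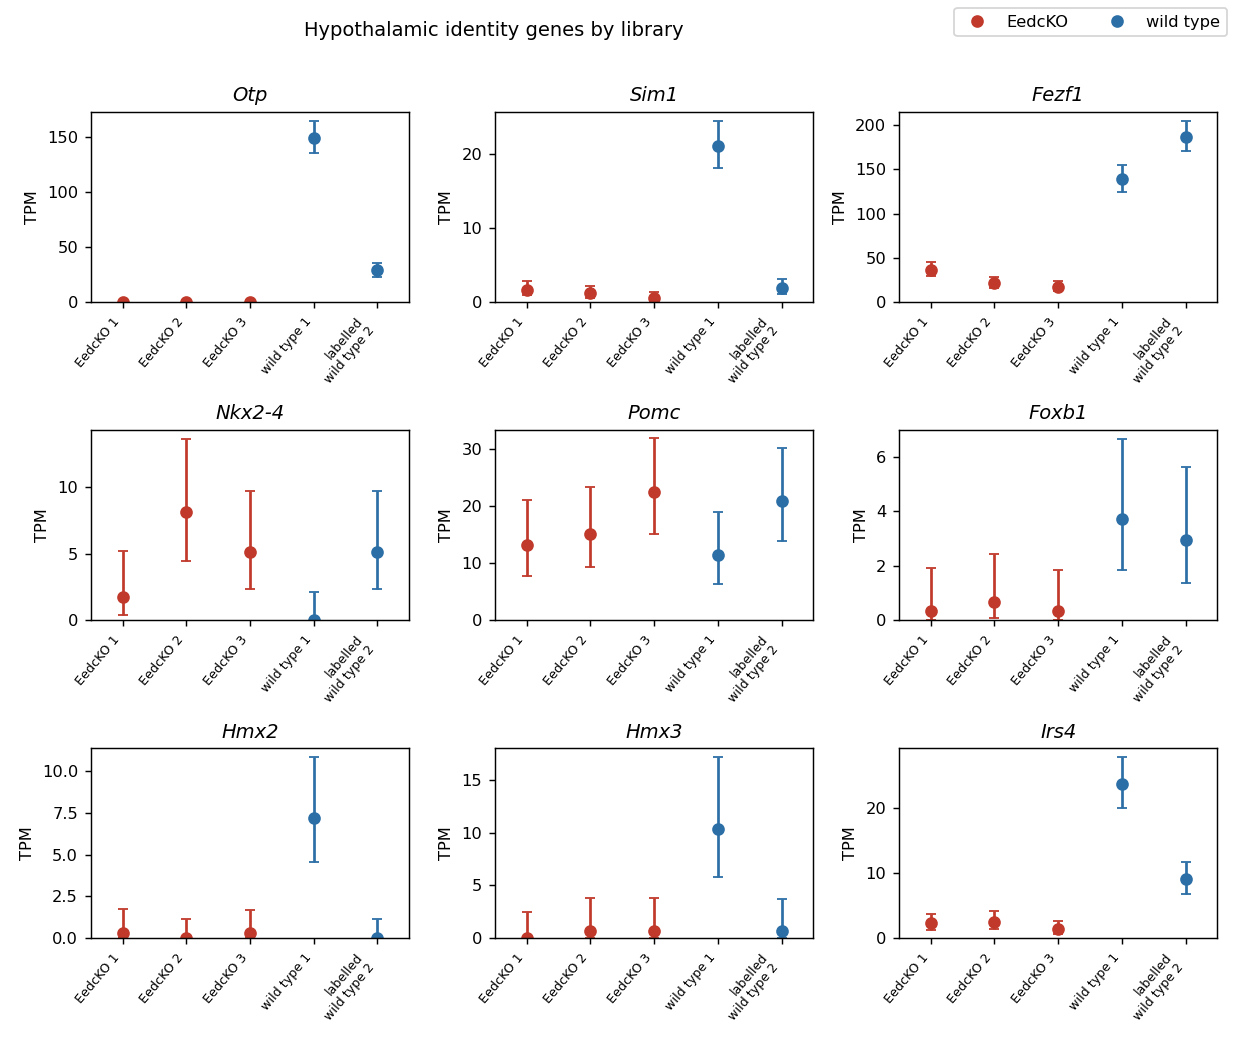
Level of each hypothalamic identity gene in TPM (counts scaled by gene length and library size, on a linear axis set separately for each gene) in each library, EedcKO in red and wild type in blue; bars are 95% Poisson intervals of the count, scaled to TPM. Otp, Fezf1, Foxb1 and Irs4 stand above EedcKO in both wild-type libraries, Sim1, Hmx2 and Hmx3 stand out in wild type 1, and Pomc and Nkx2-4 overlap between the groups.

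The promoters of the 3 genes that passed the test and of Pomc, which did not, are shown to compare their CpG content, since CpG-rich promoters are typical Polycomb targets. The sequences are RefSeq's for GRCm38.p6, the assembly also called mm10, and run from 250 bases before to 50 after the annotated start, with each CpG in capitals. Otp lies on the plus strand at chr13:94875386-94875685, Fezf1 on the minus strand at chr6:23248215-23248514, Irs4 on the minus strand at chrX:141725168-141725467 and Pomc on the plus strand at chr12:3954695-3954994.
Otp: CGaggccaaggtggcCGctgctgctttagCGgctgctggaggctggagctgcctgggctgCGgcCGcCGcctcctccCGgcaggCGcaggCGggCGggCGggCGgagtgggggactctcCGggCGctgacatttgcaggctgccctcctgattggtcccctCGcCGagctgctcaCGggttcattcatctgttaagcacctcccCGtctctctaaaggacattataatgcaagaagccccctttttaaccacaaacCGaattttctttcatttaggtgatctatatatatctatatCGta
Fezf1: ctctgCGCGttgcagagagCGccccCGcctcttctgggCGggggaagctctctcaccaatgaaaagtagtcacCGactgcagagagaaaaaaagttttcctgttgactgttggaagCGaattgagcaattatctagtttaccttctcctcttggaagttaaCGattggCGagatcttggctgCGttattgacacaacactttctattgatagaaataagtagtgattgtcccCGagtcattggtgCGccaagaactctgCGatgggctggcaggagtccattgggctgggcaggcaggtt
Irs4: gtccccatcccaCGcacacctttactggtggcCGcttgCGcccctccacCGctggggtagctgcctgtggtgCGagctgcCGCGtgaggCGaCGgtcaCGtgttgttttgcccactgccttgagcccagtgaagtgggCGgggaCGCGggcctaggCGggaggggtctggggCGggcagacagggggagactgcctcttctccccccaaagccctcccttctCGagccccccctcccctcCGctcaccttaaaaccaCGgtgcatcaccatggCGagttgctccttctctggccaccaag
Pomc: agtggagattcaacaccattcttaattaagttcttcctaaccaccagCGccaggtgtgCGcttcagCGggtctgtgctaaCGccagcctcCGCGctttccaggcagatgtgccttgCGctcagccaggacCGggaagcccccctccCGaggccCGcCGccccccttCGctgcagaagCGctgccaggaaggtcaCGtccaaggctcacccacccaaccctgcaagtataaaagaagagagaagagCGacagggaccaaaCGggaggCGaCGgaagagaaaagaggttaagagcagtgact
The Otp promoter held 20 CpG, the Fezf1 promoter 13, the Irs4 promoter 19 and the Pomc promoter 18, so Pomc, which did not pass the test, lay within the range of the 3 that did. The median of 32851 promoters in the table was 7 CpG, and 9 promoters of 8 members (all but Foxb1) had a median of 19. For Otp, Fezf1, Irs4 and Pomc, 26.5%, 37.9%, 28.1% and 29.7% of all promoters held as many CpG or more. Hmx3 and Nkx2-4 had the most, with 39 and 38, and 4.45% and 4.95% of all promoters held as many or more. Hmx2 has an upstream start whose promoter held 2 CpG and a downstream start whose promoter held 22. Searched on both strands, GACCACCC, the core of the GLI motif, was in 0 of the 9 promoters and in 0.807% of all promoters. TAATTA, a homeodomain motif, was in 1 of 9, that of Pomc, and in 5.29% of all. TATAAA was in 3 of 9, those of Hmx2 (upstream start), Sim1 and Pomc, and in 13.6% of all promoters.

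Otp and Sim1, the transcription factors of the neuroendocrine lineage, both had their highest level in wild type 1. Otp (ENSMUSG00000021685.11, chromosome 13, 94875602 to 94885130, plus strand, mm10) encodes a homeodomain factor. It had 0, 1 and 1 counts in EedcKO 1, 2 and 3, against 428 in wild type 1 and 85 counts in the library labelled wild type 2. The groups did not overlap, and the EedcKO libraries were at or under the limit that a count of 0 allows, which is 3 counts or 0.609 to 0.631 CPM. The ratio of EedcKO to wild type, from the summed counts scaled to library size, was 0.00260, with a 95% interval of 0.000314 to 0.00943 that covers counting error only. Otp passed in edgeR (adjusted p = 0.0296), in 2 of 2 wild-type libraries above every EedcKO library. It reached the count filter through its wild-type libraries alone, so it could enter the test only where wild type was high. The call is therefore a description. Against the library labelled wild type 2 alone the ratio was 0.00798 (0.000951 to 0.0297). The log2 fold change was -8.36 with all 5 libraries, -6.74 without wild type 1 and -9.10 without the library labelled wild type 2. The last 2 of these fits have 1 wild-type library, which is assumed to vary like the EedcKO libraries. The call was lost without EedcKO 1, 2 or 3 (edgeR adjusted p = 0.0958, 0.176 and 0.125). It was also lost in edgeR with library size alone (adjusted p = 0.0503), no count filter (0.111) or embryo sex as a covariate (0.231) and in limma-voom (0.270), over a range of adjusted p from 8.48e-11 to 0.270 in 17 alternatives.

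Sim1 (ENSMUSG00000019913.4, chromosome 10, 50894754 to 50989152, plus strand) encodes the bHLH-PAS factor that acts beside Otp in these neurons. It had 14, 10 and 5 counts in EedcKO 1, 2 and 3, against 180 in wild type 1 and 17 counts in the library labelled wild type 2. All 3 EedcKO libraries were below both wild-type libraries, but the library labelled wild type 2 was close to EedcKO 1. Sim1 averaged 2.00 ± 0.948 CPM in EedcKO (SD, n = 3) and 20.7 ± 24.3 CPM in wild type (SD, n = 2). The log2 fold change of -3.35 (SE 0.99, 95% interval -5.77 to -0.93) did not pass (edgeR adjusted p = 0.154). The result turned on wild type 1: without it the log2 fold change was -0.80, and without the library labelled wild type 2 it was -4.22. Each of these fits has 1 wild-type library. Against the library labelled wild type 2 alone the ratio of counts was 0.579 (95% counting interval 0.308 to 1.12), so no difference was detectable at this depth.

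Fezf1 (ENSMUSG00000029697.6, chromosome 6, 23245044 to 23248362, minus strand), a zinc finger repressor of early forebrain patterning, was lower in every EedcKO library and was the member with the smallest p-value. It had 87, 51 and 43 counts in EedcKO 1, 2 and 3, against 333 in wild type 1 and 459 counts in the library labelled wild type 2. The groups were far apart, and unlike Otp, Sim1 and Irs4 it was not highest in wild type 1. It averaged 12.48 ± 4.96 CPM in EedcKO (SD, n = 3) and 81.6 ± 16.3 CPM in wild type (SD, n = 2). The log2 fold change was -2.71 (SE 0.27, 95% interval -3.35 to -2.06, edgeR adjusted p = 0.00850). Among the fits that each left out an EedcKO library, the call was lost without EedcKO 3 only (log2 fold change -2.51, edgeR adjusted p = 0.0782). Fezf1 also missed the threshold with embryo sex as a covariate (-2.17, edgeR adjusted p = 0.178), a fit that compares EedcKO 1 alone with the wild type because no wild-type library was male.

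Irs4 (ENSMUSG00000054667.7, chromosome X, 141710998 to 141725263, minus strand) encodes an adaptor of insulin and IGF1 receptors that is made in the hypothalamus. It had 14, 16 and 9 counts in EedcKO 1, 2 and 3, against 148 in wild type 1 and 58 counts in the library labelled wild type 2. Both wild-type libraries lay above every EedcKO library, and they differed from each other by a ratio of 2.65 (95% counting interval 1.94 to 3.65). It averaged 2.69 ± 0.757 CPM in EedcKO (SD, n = 3) and 21.4 ± 13.7 CPM in wild type (SD, n = 2), a log2 fold change of -2.98 (SE 0.46, 95% interval -4.06 to -1.91, edgeR adjusted p = 0.0216). Irs4 is X-linked, and Xist and Y-linked counts marked EedcKO 2 and 3 as male and the other libraries as female. The antisense gene Gm15295 overlaps Irs4, and reads of the pair cannot be told apart without a stated strand setting. The female library EedcKO 1, with 14 counts, lay between the male ones. The call was lost without EedcKO 1, 2 or 3 (edgeR adjusted p = 0.0684, 0.0777 and 0.144), in limma-voom (adjusted p = 0.0713), in limma-trend on log2(TPM + 1) with and without a filter (0.0542 and 0.0695) and with embryo sex as a covariate (edgeR adjusted p = 0.295). Without wild type 1 the log2 fold change of Irs4 was -2.14, in a fit with 1 wild-type library.

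**Figure D2:**
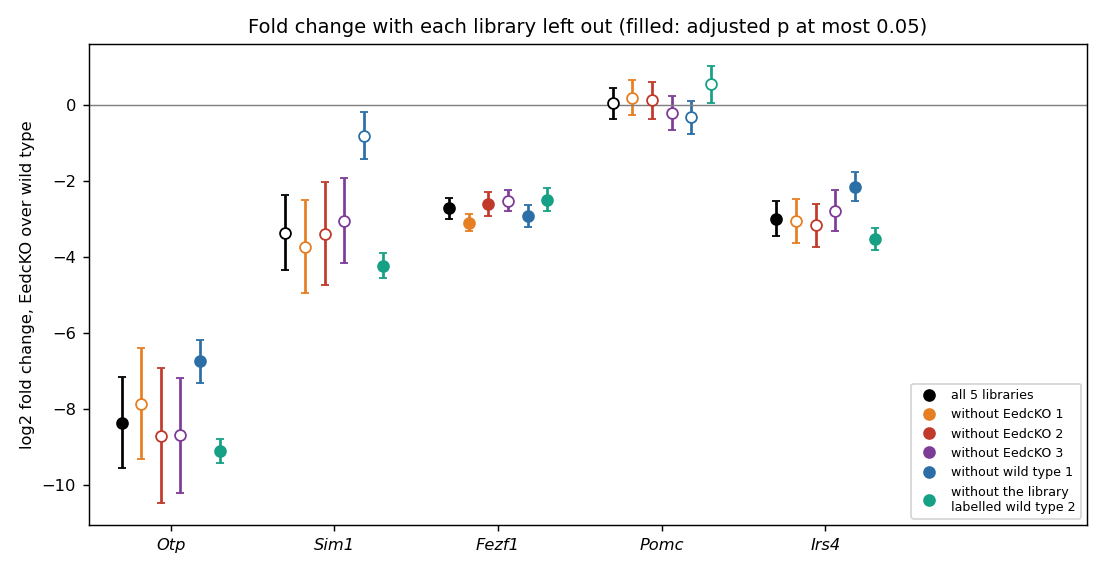
Log2 fold change of the 5 tested members, EedcKO over wild type, with all 5 libraries and with each library left out. Bars are standard errors and filled points have an edgeR adjusted p of at most 0.05. A fit that leaves out a wild-type library has 1 wild-type library, which is assumed to vary like the EedcKO libraries. Sim1 moved most between fits, to -0.80 without wild type 1 and -4.22 without the library labelled wild type 2, while Fezf1 stayed between -3.09 and -2.48.

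Foxb1 (ENSMUSG00000059246.4, chromosome 9, 69757710 to 69760940, minus strand), a forkhead factor of the mammillary body that is also made in the midbrain and hindbrain, had too few counts for the test. It had 1, 2 and 1 counts in EedcKO 1, 2 and 3, against 11 in wild type 1 and 9 counts in the library labelled wild type 2. Both wild-type libraries were above every EedcKO library and were close to each other. The ratio of the summed counts, EedcKO over wild type, was 0.133 with a 95% counting interval of 0.0331 to 0.398. In a fit with no count filter the log2 fold change was -2.80 (edgeR adjusted p = 0.0612). The antisense gene B230323A14Rik overlaps Foxb1 and had 9 counts over all libraries, and without a stated strand setting reads of the pair cannot be told apart.

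Hmx2 and Hmx3, homeodomain factors of growth hormone releasing hormone neurons and of the inner ear, lie 3848 bases apart on chromosome 7. Hmx3 (ENSMUSG00000040148.5) spans 131542867 to 131544925 and Hmx2 (ENSMUSG00000050100.14) spans 131548773 to 131558014, both on the plus strand. Hmx2 had 1, 0 and 1 counts in EedcKO 1, 2 and 3, against 23 in wild type 1 and 0 counts in the library labelled wild type 2. Hmx3 had 0, 1 and 1 counts in EedcKO 1, 2 and 3, against 15 in wild type 1 and a single count in the library labelled wild type 2. Both genes were seen above the limit of 3 counts in wild type 1 alone, and the groups overlapped. Neither had enough counts for the main test. In a fit of all 5 libraries with no count filter neither passed. The log2 fold change was -3.89 for Hmx2 (edgeR adjusted p = 0.324) and -3.37 for Hmx3 (edgeR adjusted p = 0.201). The ratio of summed counts, EedcKO over wild type, was 0.0579 for Hmx2 (95% counting interval 0.00662 to 0.234) and 0.0833 for Hmx3 (0.00929 to 0.354), and in both it rested on wild type 1. In a fit that omitted the library labelled wild type 2, both were called lower, at a log2 fold change of -4.89 for Hmx2 (edgeR adjusted p = 0.0116) and -4.28 for Hmx3 (edgeR adjusted p = 0.0344). That fit has 1 wild-type library, which is assumed to vary like the EedcKO libraries. Both genes reached the count filter through that library alone, so they could enter the test only where wild type was high, and these calls are a description and no support. The annotation places Fgfr2 across both genes on the other strand. It had 706, 813 and 760 counts in EedcKO 1, 2 and 3, against 523 in wild type 1 and 627 counts in the library labelled wild type 2. Without a stated strand setting, reads of Fgfr2 and of either gene cannot be told apart. The 5 inner ear markers summed to between 1.86 and 5.21 CPM in EedcKO, against 3.58 CPM in wild type 1 and 3.85 CPM in the library labelled wild type 2, and Oc90 had at most 2 counts in any library.

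Nkx2-4 (ENSMUSG00000054160.2, chromosome 2, 147083316 to 147085445, minus strand), a homeodomain factor closely related to Nkx2-1, went the other way in wild type 1. It had 3, 14 and 9 counts in EedcKO 1, 2 and 3, against 0 in wild type 1 and 9 counts in the library labelled wild type 2. The groups overlapped, because the library labelled wild type 2 lay within the EedcKO range. The ratio of summed counts, EedcKO over wild type, was 1.93 (95% counting interval 0.874 to 4.67), and against the library labelled wild type 2 alone it was 0.980 (0.445 to 2.38). Its relative Nkx2-1, named after its values were seen, had 331, 7 and 6 counts in EedcKO 1, 2 and 3, against 863 in wild type 1 and 724 counts in the library labelled wild type 2. EedcKO 1 kept much more Nkx2-1 than EedcKO 2 and 3, and the log2 fold change of -2.79 (SE 1.35) did not pass (edgeR adjusted p = 0.406). With EedcKO 1 left out it was -6.92 (edgeR adjusted p = 0.000501). In that fit Nkx2-1 reached the count filter through its wild-type libraries alone, so it could enter the test only where wild type was high. The fit also omits the EedcKO library that kept Nkx2-1, so this value is a description and no support.

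Pomc (ENSMUSG00000020660.6, chromosome 12, 3954951 to 3960642, plus strand) encodes the precursor of ACTH, alpha-MSH and beta-endorphin in arcuate neurons and in pituitary corticotrophs. It had 17, 20 and 30 counts in EedcKO 1, 2 and 3, against 15 in wild type 1 and 28 counts in the library labelled wild type 2. The groups overlapped, with wild type 1 below every EedcKO library, EedcKO 3 above both wild-type libraries and the others between them. It averaged 4.60 ± 1.36 CPM in EedcKO (SD, n = 3) and 4.42 ± 1.79 CPM in wild type (SD, n = 2). The log2 fold change of 0.06 did not pass (SE 0.41, edgeR adjusted p = 0.968), and its 95% interval of -0.889 to 1.003 leaves room for a change of about 2-fold in either direction. The 8 pituitary markers summed to between 2.48 and 4.58 CPM in EedcKO, against 2.73 CPM in wild type 1 and 6.29 CPM in the library labelled wild type 2. Of these, Tbx19, the corticotroph factor, had 1 count in the library labelled wild type 2 and 0 in the others, and most of the sum was Gata2. Of the 8, 6 were at 0 in wild type 1.

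On TPM, which scales counts by gene length and so allows levels of different genes to be set side by side, the order of the members differed between the groups. In EedcKO Fezf1 was highest at 25.2 ± 10.2 TPM, and then Pomc at 16.9 ± 4.87 and Nkx2-4 at 5.01 ± 3.17 TPM (SD, n = 3). Irs4 followed at 2.07 ± 0.591 TPM and Sim1 at 1.13 ± 0.543 TPM (SD, n = 3). Hmx3, Foxb1, Otp and Hmx2 were between 0.208 and 0.454 TPM on average in EedcKO, levels that rest on 0 to 2 counts a library. Of these neighbours, Pomc and Nkx2-4 had ranges that did not overlap, whereas Fezf1 overlapped Pomc, Nkx2-4 overlapped Irs4 and Irs4 overlapped Sim1. In wild type 1 Otp led with 149.9 TPM, ahead of Fezf1 with 139 TPM, Irs4 with 23.7 TPM and Sim1 with 21.1 TPM. Fezf1 led in the library labelled wild type 2 with 187 TPM, ahead of Otp with 29.0 TPM and Pomc with 20.9 TPM, and Sim1 was at 1.94 TPM. Fezf1 and Otp, the highest pair in the wild-type group, overlapped across its libraries.

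Wild type 1 and the library labelled wild type 2 differed from each other in most members. Wild type 1 was at least 2-fold higher in 5 members, Otp, Sim1, Hmx2, Hmx3 and Irs4, and at least 2-fold lower in 1, Nkx2-4. Among all tested genes, 1.78% were at least 2-fold higher in wild type 1 and 5.41% at least 2-fold lower. Those shares leave out genes too low to test, as Hmx2, Hmx3 and Nkx2-4 were. The ratio of counts, wild type 1 over the library labelled wild type 2, was 5.22 for Otp (95% counting interval 4.13 to 6.67), 10.98 for Sim1 (6.67 to 19.3) and 15.6 for Hmx3 (2.39 to 655). By the 95% counting interval Hmx2 was at least 5.96-fold higher in wild type 1 (7.95-fold when 3 counts are taken as the limit for the library labelled wild type 2). The ratio was 0.752 for Fezf1 (0.651 to 0.868), 0.555 for Pomc (0.276 to 1.08) and 1.27 for Foxb1 (0.477 to 3.46). With 1 library on each side these ratios have no replicate check. The epithelial, erythroid and skeletal muscle markers were also higher in the library labelled wild type 2 than in wild type 1. Erythroid markers summed to between 142 and 304 CPM in EedcKO, against 136 CPM in wild type 1 and 495 CPM in the library labelled wild type 2, and muscle markers to between 0.826 and 3.96 CPM in EedcKO, against 0.841 CPM in wild type 1 and 28.8 CPM in the library labelled wild type 2. Their part in the differences between these libraries was not tested.

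Of other genes of the hypothalamic programme, listed with earlier results of these data known, 6 of 36 tested passed as lower and none as higher. Of all 13989 genes tested, 2.17% passed as lower and 1.04% as higher. In the list of paraventricular and neuroendocrine genes none of 4 tested passed, and the median log2 fold change was 0.00, against 0.01 for all tested genes. The lowest p-values there were for the neuropeptide Sst (log2 fold change -0.60, edgeR adjusted p = 0.0735) and the POU factor Pou3f3 (0.23, edgeR adjusted p = 0.372). Among genes too low to test, named after their values were seen, Trh, the thyrotropin releasing hormone precursor, had 2, 0 and 1 counts in EedcKO 1, 2 and 3, against 30 in wild type 1 and 3 counts in the library labelled wild type 2. Sim2, the paralogue of Sim1, had 1, 2 and 1 counts in EedcKO 1, 2 and 3, against 22 in wild type 1 and 5 counts in the library labelled wild type 2. Both were highest in wild type 1, as Otp and Sim1 were, with ratios between the wild-type libraries of 10.4 for Trh (95% counting interval 3.22 to 53.1) and 4.56 for Sim2 (1.69 to 15.4).

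In the tuberal, arcuate and lateral list 11 genes were tested, and the median was -0.95. Nkx2-2, a ventral homeodomain factor, and Bsx, a factor of arcuate neurons, had no count in any EedcKO library. Nkx2-2 had 28 counts in wild type 1 and 8 counts in the library labelled wild type 2, and the 95% counting interval put it at least 13.9-fold lower in EedcKO (18.0-fold when 3 counts over the EedcKO group are taken as its limit). Bsx had 9 counts in wild type 1 and 18 counts in the library labelled wild type 2, and was at least 10.3-fold lower in EedcKO by the same interval (13.5-fold with the limit of 3 counts). Both were named after their values were seen. In the mammillary and supramammillary list 2 of 8 tested genes passed as lower, the LIM homeodomain factors Lhx5 (-1.82, SE 0.20, edgeR adjusted p = 0.00937) and Lhx1 (-1.68, SE 0.21, edgeR adjusted p = 0.0112), and the median was -1.31. Lhx1 and Lhx5 are also made by other forebrain neurons, among them Cajal-Retzius cells.

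Among inductive signals and factors of the anterior fields 3 of 13 tested genes passed as lower, and the median was -0.998. Shh, the ligand that induces the ventral forebrain, had 5, 1 and 3 counts in EedcKO 1, 2 and 3, against 124 in wild type 1 and 103 counts in the library labelled wild type 2 (log2 fold change -5.19, edgeR adjusted p = 0.00455). It reached the count filter through its wild-type libraries alone, so it could enter the test only where wild type was high. Shh was at a like level in both wild-type libraries, where Otp and Sim1 were not. For Gli1, a transcriptional target of the pathway, the value was -1.93 (edgeR adjusted p = 0.0412), and for Fgf15, a ligand made in ventral progenitors, it was -1.87 (SE 0.11, edgeR adjusted p = 0.00359). In fits with 1 wild-type library, Shh was at -5.33 without the library labelled wild type 2 and at -5.04 without wild type 1. Pou3f2 of the paraventricular list went the other way, at 0.45 without wild type 1. None of the listed genes passed in edgeR without EedcKO 3, where 14 had an unadjusted p under 0.05, DESeq2 called 7 and limma-voom 0.

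**Figure D3:**
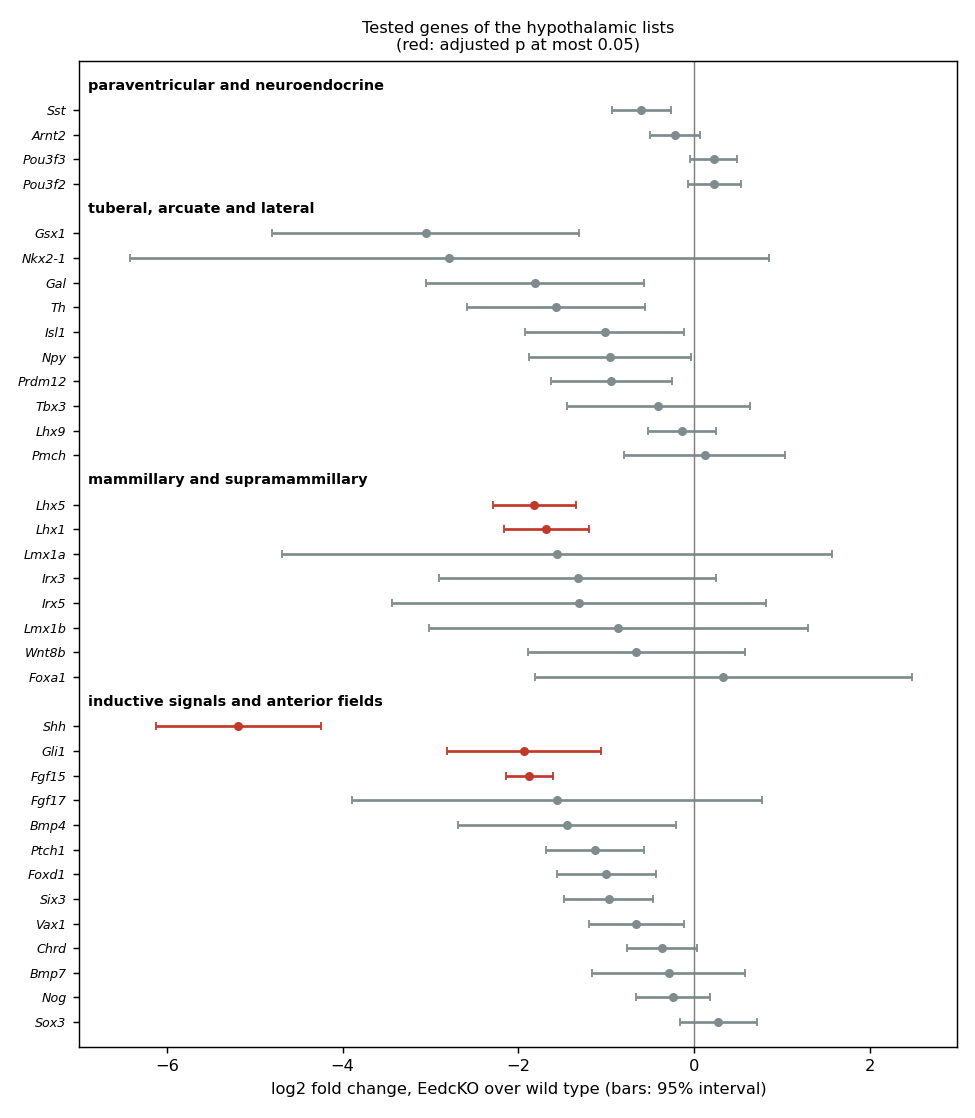
Log2 fold change, EedcKO over wild type, of tested genes of 4 hypothalamic lists, with 95% intervals; genes with an edgeR adjusted p of at most 0.05 are in red. Lhx5, Lhx1, Shh, Gli1 and Fgf15, which passed, lie below 0. Libraries of 1 group differed widely in Nkx2-1 and in Lmx1a, whose intervals are wide.

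The genes nearest in pattern were found by the distance between centred log2 CPM profiles over the 5 libraries, a description with no test. Nearest to Fezf1 was Car10, a carbonic anhydrase related gene, at a distance of 0.316, with 18, 12 and 8 counts in EedcKO 1, 2 and 3, against 63 in wild type 1 and 103 counts in the library labelled wild type 2. Egfem1 and Ccdc187 followed at 0.711 and 0.744. Among the genes nearest to Irs4 were Onecut3 at 0.572 and Uncx at 0.708, both higher in wild type 1 than in the library labelled wild type 2. Otp had no close neighbour. The nearest genes were Shh at 2.61, Skor1 at 2.80 and Calcr at 3.05, and of these Calcr alone shared the gap between the wild-type libraries, with 1, 1 and 1 counts in EedcKO 1, 2 and 3, against 58 in wild type 1 and 17 counts in the library labelled wild type 2.

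The nearest tested gene on each side of Otp, Sim1, Fezf1 and Irs4 was taken, skipping genes too low to test. None of these 8 genes passed, and 3.2% of all tested genes did. Tbca lies 32.7 kb from Otp and its log2 fold change was -0.04 (SE 0.13, edgeR adjusted p = 0.909), and Wdr41, 91.2 kb away on the other side, had -0.11. Cadps2, 14.4 kb from Fezf1, had -0.20 (SE 0.29, edgeR adjusted p = 0.794), and Aass on the other side had 0.47. Around Sim1 the values were 0.15 for Ascc3, 43.3 kb away, and -0.00 for Dcbld1, 1244.5 kb away. Around Irs4 they were 0.08 for Col4a5, 21.8 kb away, and 0.13 for Nxt2, 501.5 kb away. The difference between a member and its nearest tested genes was not tested.

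**Figure D4:**
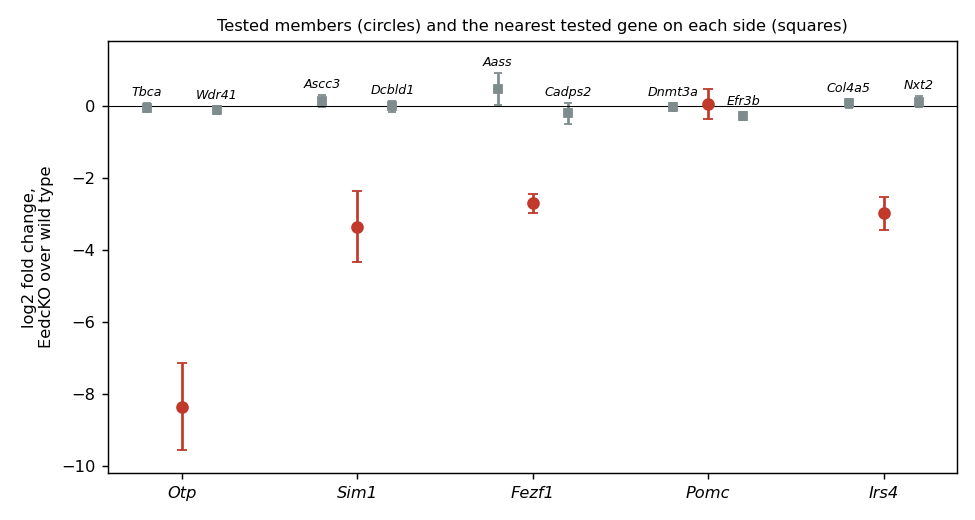
Log2 fold change, EedcKO over wild type, of the 5 tested members (circles) and of the nearest tested gene on each side of each (squares), with standard errors. The squares lie between -0.28 and 0.47, while Otp, Sim1, Fezf1 and Irs4 lie between -8.36 and -2.71.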

How the data were processed

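Libraries followed the BGISEQ-500 procedure, per the labels' protocols, and reads were aligned to mm10, with HISAT2 2.2.0 named, per the submitters' processing notes. The sources used here do not name the counting tool, its strand setting or the annotation. Deposited by the authors were whole-number counts per gene for 56196 rows and TPM for 24926 rows. For 11960 genes with at least 20 counts in each library, deposited count over deposited TPM kept the same proportions between libraries within 1%. Rows without a symbol (28277, with 2.01% to 2.16% of the counts) were left out. Of rows that share a symbol, the one holding 99% or more of the counts kept it.

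In R 4.3.3 with edgeR 4.0.16, counts were filtered with filterByExpr, scaled by TMM and tested with glmQLFit (robust) and glmQLFTest on genotype, with Benjamini-Hochberg adjustment over 13989 genes. The standard error is the log2 fold change over the square root of F. The 95% intervals of counts (Poisson) and of ratios (exact binomial) cover only counting error. Alternatives used limma 3.58.1 and DESeq2 1.42.0. The fit was also run on simulated counts, with changes put only into genes of higher level, so it does not cover the low members. Its outcome is not reported here. The members and lists were chosen with earlier results of these data known. The named genes are all 9 members, up to 4 genes of each list past the threshold (or the 2 with the smallest p), and the 3 genes nearest in pattern to each called member; some of these are not reported here. Coordinates are GENCODE M21 for mm10, 1-based.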

Additional observations from a re-analysis of the deposited data

How the results depend on the processing

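The calls rest on few libraries. A fit that leaves out a wild-type library has 1 wild-type library, which is assumed to vary like the EedcKO libraries. All genes called numbered 448 and ranged from 0 to 1012 when 1 library was left out, members called numbered 3 (0 to 6) and listed genes called numbered 6 (0 to 14). Without EedcKO 1, 2 and 3 the members called were 1, 1 and 0, and without wild type 1 and the library labelled wild type 2 they were 3 and 6. DESeq2 called 677 genes and 10 listed genes, limma-trend on TPM called 244 with a pseudocount of 1, 280 with 0.1 and 174 with no filter, and limma-voom called 1 member, Fezf1. The cause was not tested. With embryo sex as a covariate edgeR called 0 genes, 0 members and 0 listed genes (1611, 3 and 11 at an unadjusted p under 0.05), DESeq2 called 55, 2 and 3, and limma-voom called 0, 0 and 0. Without EedcKO 3 edgeR called 0 genes (1886 at an unadjusted p under 0.05, 4 of them members), DESeq2 called 255 with 3 members, and limma-voom 0. With the replicate number as a block edgeR called 0 genes, 0 members and 0 listed genes (2169, 4 and 16 at an unadjusted p under 0.05), DESeq2 called 120, 3 and 4, and limma-voom called 0; the block put the edgeR adjusted p at 0.0530 for Otp, 0.0584 for Fezf1 and 0.107 for Irs4. The libraries share only a number: the correlation of same-numbered deviations from the group means was -0.041 for number 1 and 0.130 for number 2. Otp, Fezf1, Irs4 and Sim1 were lower in EedcKO in all 17 alternatives of each, with log2 fold changes of -11.02 to -5.79, -3.09 to -2.17, -3.52 to -2.14 and -4.22 to -0.80. Pomc, which was not called, changed sign to -0.17 with the block, -0.32 with sex, -0.32 without wild type 1 and -0.20 without EedcKO 3, within a range of -0.32 to 0.55 when 1 library was left out. Depth limits Foxb1, Hmx2, Hmx3 and Nkx2-4, whose counts did not exceed 23 in any library.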
